A study of Arabidopsis thaliana with 14 samples.

Results

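Transcript levels of 8 expansin genes of Arabidopsis thaliana were followed in roots and inflorescences of the gir mutant and of Col-7. Expansins are secreted wall proteins that loosen the contacts between cellulose and matrix polysaccharides at acid pH without cutting them, and so let cells enlarge under turgor. Alpha-expansins (EXPA) and beta-expansins (EXPB) are separate families of one fold, and the expansin-like genes (EXLA, EXLB) are relatives for which wall loosening has not been established. In Arabidopsis, EXPA7 and EXPA18 are the root hair expansins, switched on in hair-forming cells. The best known beta-expansins of grasses are pollen proteins.

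The 8 genes are 5 alpha-expansins (EXPA7, EXPA8, EXPA9, EXPA15 and EXPA18) and 3 beta-expansins (EXPB2, EXPB3 and EXPB5). Each was read through 1 probe set that names that gene alone in the platform annotation, 8 of 22810 probe sets on the array. Another 10 expansin and expansin-like genes had such a probe set, out of 35 loci of the family that were looked up. The annotation used lists 14016 of the 22810 probe sets, so a gene said to lack one may only be missing from it. The 8 were named with earlier results of these arrays known, among them the fall of EXPA15 and the rise of EXPA7 in gir roots and the high root levels of EXPA7 and EXPA18. No cutoff on values went with the choice. Their differences are therefore given as a description, and an adjusted p is printed for them only where another setting of the fit changes a call. The words "rose" and "fell" mark differences with an adjusted p under 0.05 in the fit over all probe sets tested.

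Roots came from 21-day-old Col-7 (3 arrays) and gir plants (3 arrays) that had been moved from plates lacking glucose to plates with 4% glucose. The series' design text gives 11 days before and 10 days after that move, while the sample protocol gives 7 days on a first plate, so these times are uncertain. Inflorescences without their opened and opening flowers, labelled as flower, came from 33-day-old soil-grown Col-7 (4 arrays) and gir plants (4 arrays). The labels name no allele for gir, and do not say how many plants were pooled or whether replicates were separate plantings, so the spread between arrays may be technical. Values are MAS5 intensities on a linear scale. Differences are between means of log2(intensity + 26), so that changes of dim genes come out too small. The number of arrays limits the precision.

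The tissue labels were checked on marker genes. The peroxidase gene AT1G30870, the only one of 27 listed root hair genes with a probe set of its own, ranged from 2910 to 3577 on the root arrays and from 1.79 to 16.9 on the inflorescence arrays. The 9 measured late pollen genes summed to 105 to 141 on root arrays and to 6019 to 6822 on Col-7 inflorescence arrays. The tissues also differ in plant age, medium and glucose, which cannot be told apart from tissue. The dap spike-in control read 0.874 to 21.4 on root arrays and 235 to 400 on inflorescence arrays. What made the 2 sets of arrays differ in this control cannot be told apart from tissue either.

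In Col-7, 6 of the 8 expansins were higher in roots and 2, EXPA8 and EXPB5, were higher in inflorescences. All 8 passed the threshold, as did 78.1% of the 15858 probe sets tested, 38.2% higher in inflorescences and 39.9% higher in roots. Several of the 8 passed the filter on dim values only through the tissue in which they were high. The arrays of the 2 tissues did not overlap for any of the 8, nor for 77.6% of the probe sets tested. EXPA7 averaged 737 ± 19.6 in roots of Col-7 (SD, n = 3) and 8.74 ± 3.64 in its inflorescences (n = 4). EXPA18 averaged 1251 ± 57.0 and 34.5 ± 12.4 in the same groups. The intensities of both genes lay below the 40th percentile of each inflorescence array, at 126 to 140, so neither was measurably above the dim part of those arrays. EXPB2 was dim in inflorescences too, at 36.5 ± 12.2 against 206 ± 42.6 in roots.

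EXPA15, EXPB3 and EXPA9 were measured in both tissues. EXPA15 was 5.49-fold, EXPB3 4.31-fold and EXPA9 2.53-fold higher in Col-7 roots than in Col-7 inflorescences. EXPA8 had the reverse pattern, averaging 471 ± 12.4 in roots of Col-7 and 2667 ± 341 in its inflorescences, 5.67-fold higher in the latter. EXPB5 was at 36.1 ± 11.8 and 567 ± 65.7 in these groups, and its root arrays were all below their 40th percentile.

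**Figure D1:**
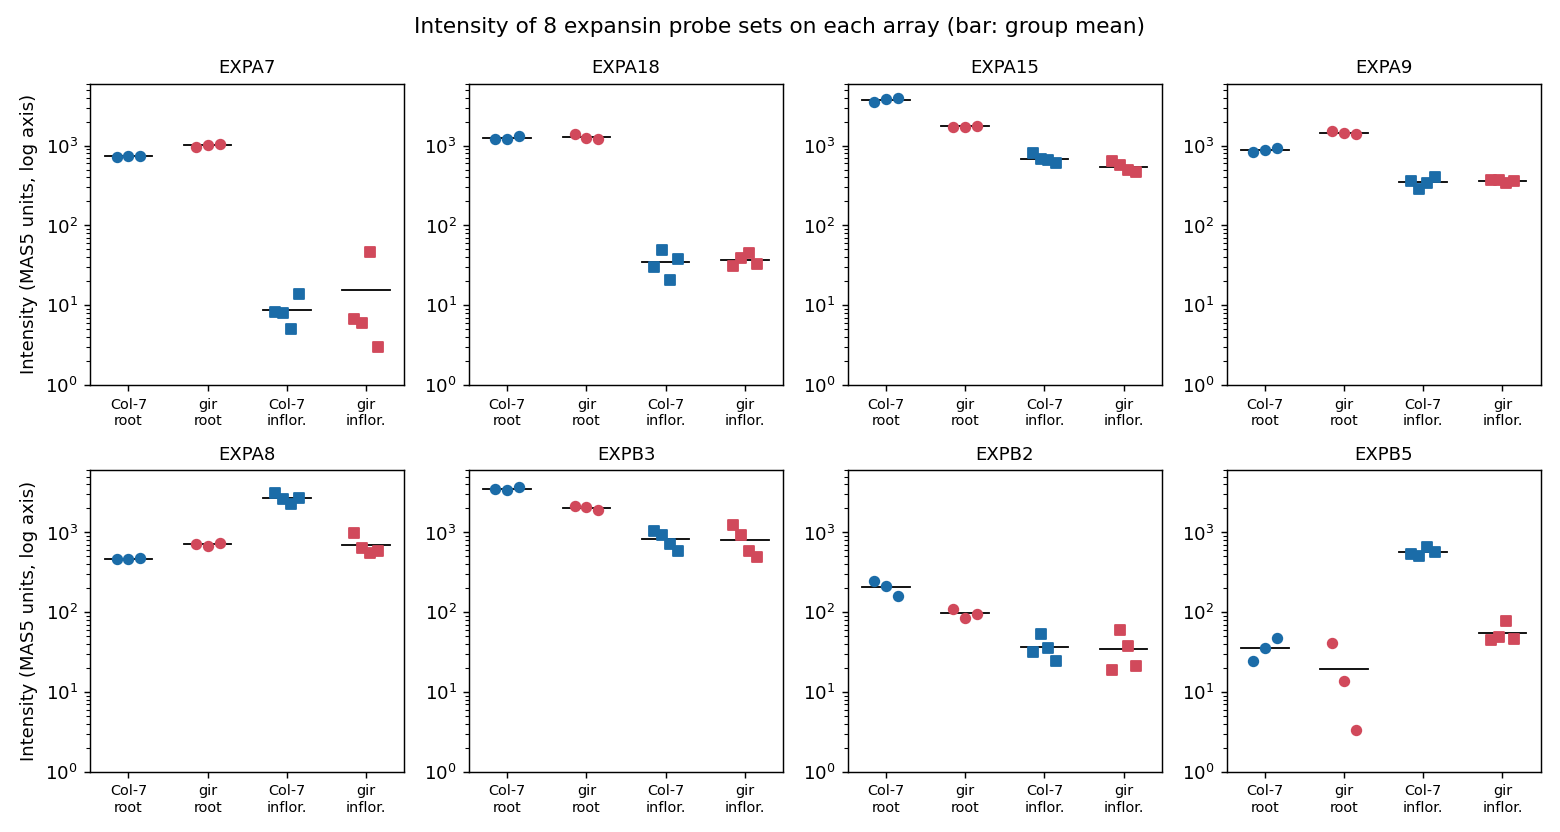
Intensity (MAS5 units, log axis) of each of the 8 expansin probe sets on every array, by group (circles for roots, squares for inflorescences, blue for Col-7, red for gir, bar for the group mean). EXPA7 and EXPA18 sit at 715 or higher on all root arrays and at 49.7 or lower on all inflorescence arrays, whereas EXPB5 reaches 503 or more on the 4 Col-7 inflorescence arrays alone.

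In gir roots the expansins did not move together: EXPA7, EXPA8 and EXPA9 rose, EXPA15, EXPB2 and EXPB3 fell, and EXPA18 did not pass the threshold. Of the 8, 7 were bright enough to be tested in roots and EXPB5 was not. Thus 3 of 7 rose and 3 of 7 fell, beside 5.49% of the 13799 probe sets tested that were higher and 6.36% that were lower, 11.9% in all. Since root values of some of these genes were known when they were named, nothing is read from that share. EXPB2, moreover, passed the filter only through Col-7. The median log2 change of the 7 was 0.04, and that of all probe sets tested was -0.0078.

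The root hair expansins differed from each other. EXPA7 was at 715, 752 and 744 on the Col-7 root arrays and at 970, 1013 and 1039 on the gir root arrays. All gir values exceeded all Col-7 values, and the mean was 1.37-fold higher in gir, a log2 change of 0.44 ± 0.07 (SE). EXPA18 was at 1219, 1218 and 1317 in Col-7 and at 1397, 1238 and 1222 in gir. Those ranges overlapped, and the log2 change was 0.04 ± 0.08. Because both were read on the same arrays, their ratio does not depend on how arrays were scaled. EXPA7 over EXPA18 was 0.586, 0.618 and 0.565 on the Col-7 root arrays and 0.694, 0.818 and 0.850 on the gir root arrays, without overlap. The marker AT1G30870 was 0.24 ± 0.07 higher in gir roots (limma adjusted p = 0.046), a call lost in 10 of its alternatives, with an adjusted p of 0.088 with replicate numbers as a block.

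EXPA15 had the largest fitted fall in roots among the 8, with a log2 change of -1.11 ± 0.07. Its intensities were 3517, 3832 and 4007 in Col-7 and 1712, 1739 and 1773 in gir, 2.17-fold lower. The coefficient of variation of the 3 gir arrays was 1.76%, and the groups were far apart. EXPB3, a beta-expansin, went the same way, from 3522, 3392 and 3680 in Col-7 to 2120, 2057 and 1918 in gir, 1.74-fold lower and without overlap (log2 change -0.79 ± 0.07). EXPB2 was at 244, 213 and 160 in Col-7 and at 109, 85.2 and 95.1 in gir (-0.91 ± 0.14). All 3 gir arrays lay below their own 40th percentile for EXPB2, which passed the filter only through Col-7. So only a bound holds: against the 40th percentile of the gir arrays EXPB2 was at least 1.80-fold lower. Whether EXPB2 or EXPA15 fell more is thus not settled. EXPB2 and EXPB6 are neighbouring genes in the gene table, EXPB6 had no probe set of its own, and whether its transcript reaches the EXPB2 probes was not tested.

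EXPA9 and EXPA8 moved the opposite way. EXPA9 was at 831, 892 and 930 in Col-7 roots and at 1547, 1430 and 1402 in gir roots, 1.65-fold higher (0.71 ± 0.08). EXPA8 was at 467, 461 and 484 in Col-7 roots and at 722, 674 and 737 in gir roots, 1.51-fold higher (0.57 ± 0.07). Neither gene's groups overlapped. Groups did not overlap for 6 of the 7 tested expansins, and for 32.9% of all probe sets tested in roots. The 6 include EXPB2, which entered the test only through Col-7, so nothing is read from that count.

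The opposite moves showed most plainly in ratios within an array. EXPA9 over EXPA15 was 0.236, 0.233 and 0.232 on the Col-7 root arrays and 0.904, 0.823 and 0.791 on the gir root arrays. EXPA8 over EXPA15 was 0.133, 0.120 and 0.121 in Col-7 and 0.422, 0.388 and 0.416 in gir. Both ratios were higher in gir, from means of 0.234 to 0.839 and of 0.125 to 0.408. EXPB3 over EXPA15 moved less, from 0.935 ± 0.0599 to 1.17 ± 0.0796 (SD, n = 3).

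**Figure D2:**
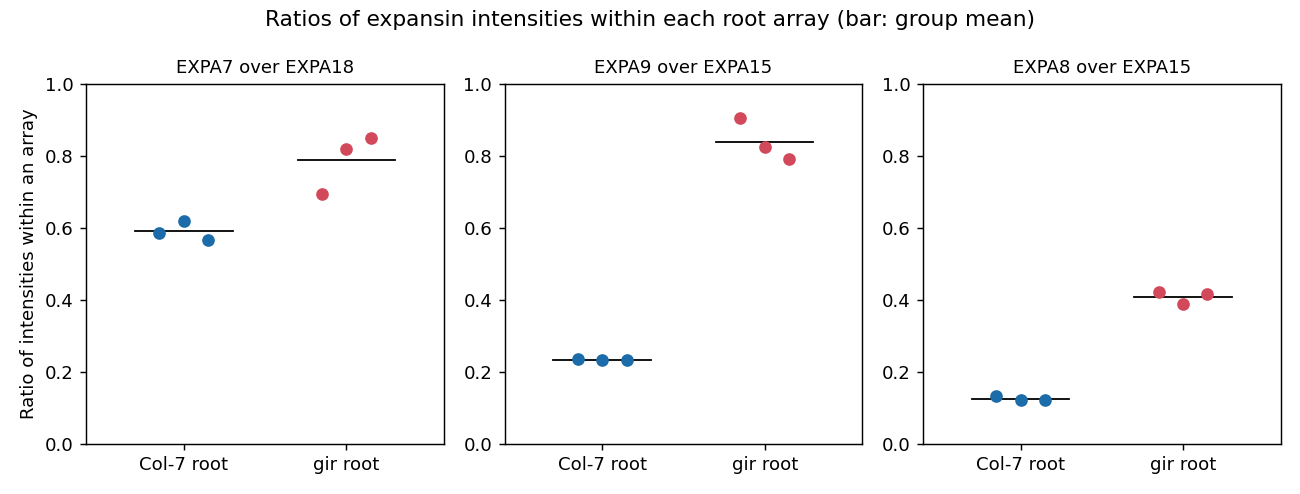
Ratio of 2 expansin intensities within each root array (points, 3 Col-7 in blue and 3 gir in red, bar for the group mean). The groups do not overlap in any panel, and EXPA9 over EXPA15 goes from 0.234 to 0.839.

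The 25S ribosomal RNA control probe set was at 866 to 1270 on the Col-7 root arrays and at 390 to 774 on the gir root arrays. Its part in the root differences was not tested. The root differences of EXPA7, EXPA8 and EXPB3 did not pass in a fit of all 14 arrays (limma adjusted p = 0.37, 0.061 and 0.12). That fit pools the wider spread of the inflorescence arrays. The differences of EXPA9 and EXPA15 passed in it. EXPB2 passed too, but it had entered the test only through Col-7, so nothing is read from its pass.

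Of the 10 other expansin and expansin-like genes, 7 were tested in roots, 2 fell, none rose and 5 did not pass. Over all probe sets tested in roots, 6.36% were lower and 5.49% higher. The median log2 change of the 7 was 0.0052. EXPA4 was at 7449 ± 410 in Col-7 roots and at 4550 ± 140 in gir roots (SD, n = 3), a log2 change of -0.71 ± 0.07 (limma adjusted p = 0.0012). Its change was near that of EXPB3. EXLB1, an expansin-like gene, went from 2778 ± 110 to 2179 ± 161 (-0.35 ± 0.08, limma adjusted p = 0.025). The EXLB1 call ended without the filter on dim values (limma adjusted p = 0.087), in the joint fit (0.25), and without any 1 root array other than gir replicate 3 (0.050 to 0.086). The genes EXPA20, EXPB1, EXLA1, EXLA2 and EXLA3 lay between -0.03 and 0.33 and did not pass. EXPA16, EXPA21 and EXPA24 were too dim in roots to be tested.

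**Figure D3:**
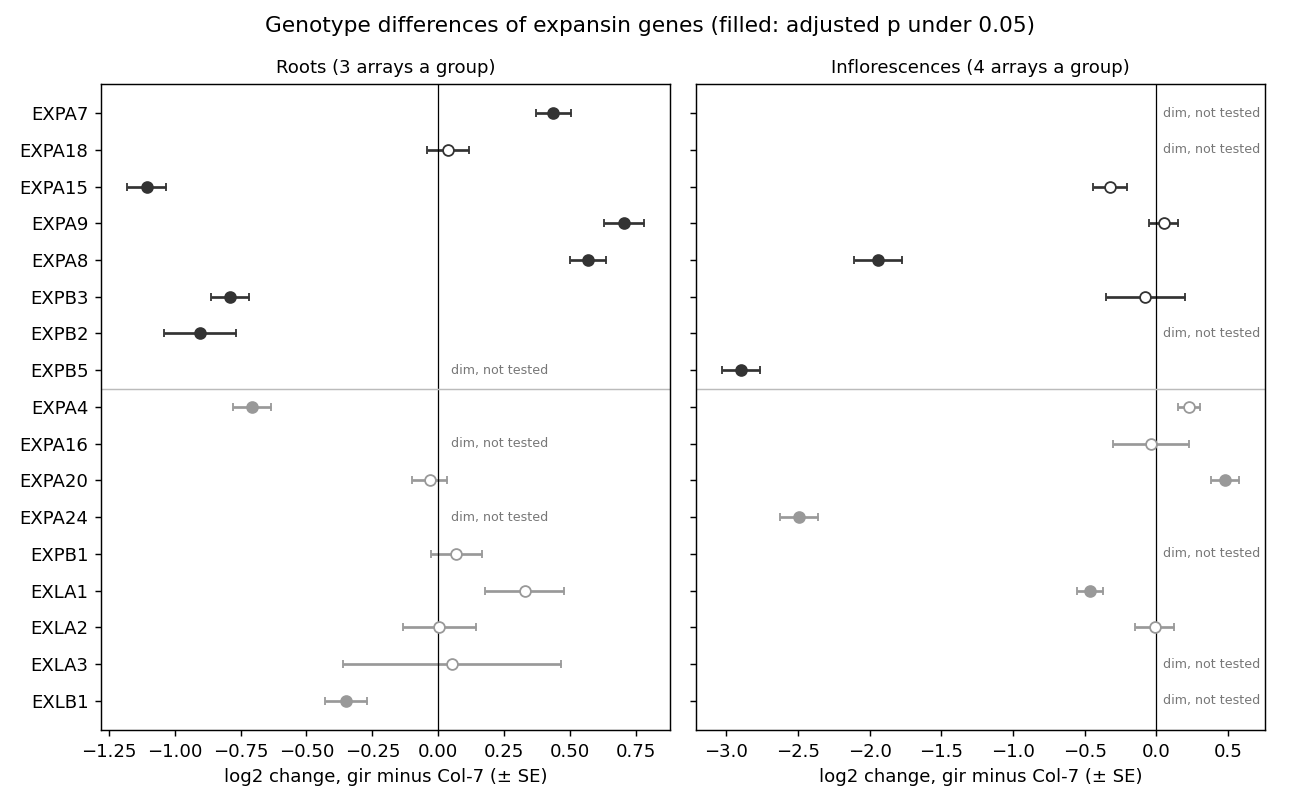
log2 change between gir and Col-7 (points, bars for the SE) of the 8 expansins (black) and of 9 other family members (grey) in roots (left) and inflorescences (right), on axes of different range. Filled points have an adjusted p under 0.05. EXPA8 lies at 0.57 in roots and at -1.94 in inflorescences. EXPA21, dim on every array, is left out.

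In gir inflorescences, EXPB5 fell at least 4.42-fold and EXPA8 fell 3.87-fold, while EXPA9, EXPA15 and EXPB3 did not pass the threshold. The remaining 3, EXPA7, EXPA18 and EXPB2, were below the 40th percentile on every inflorescence array and were not tested. Thus 2 of 5 fell and none rose, beside 12.5% of the 13970 probe sets tested that were lower and 12.5% that were higher, 25.0% in all. EXPB5 passed the filter only through Col-7, where it was high, so these counts support nothing further. The median log2 change of the 5 was -0.32, and that of all probe sets tested was 0.06.

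EXPB5 was at 537, 503, 656 and 573 on the Col-7 inflorescence arrays and at 44.4, 49.0, 77.1 and 46.3 on the gir inflorescence arrays. Every gir value was below the 40th percentile of its array, so the fold is given as a bound: the Col-7 mean was at least 4.42-fold above the 40th percentile of the gir arrays. The fitted log2 change of -2.90 ± 0.13 (SE) rests on those dim gir values. Its gir inflorescence values reached down into its root range of 3.33 to 47.9. EXPA8 was at 3097, 2599, 2270 and 2702 in Col-7 and at 979, 635, 558 and 585 in gir, 3.87-fold lower (-1.94 ± 0.17). The gir inflorescence range of EXPA8 enclosed its gir root range of 674 to 737, so the tissues were apart for EXPA8 in Col-7 and overlapped in gir. The groups did not overlap for these 2 genes, nor for 27.9% of all probe sets tested in inflorescences.

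As a sum, late pollen markers were lower in gir inflorescences, as both genes were. Not every marker was clearly lower: AGL65, too dim to be tested, averaged 129 in Col-7 and 106 in gir inflorescences, with overlapping arrays. The 9 measured of 18 listed late pollen genes summed to 6019 to 6822 on Col-7 and to 793 to 1157 on gir inflorescence arrays. All 7 that were tested were lower in gir, but 5 of them lay below the 40th percentile on every gir array and had entered the test only through Col-7, so the count supports nothing. The 6 measured of 13 listed tapetum genes summed to 6664 to 8416 in Col-7 and to 6856 to 7328 in gir. None of the 6 passed, where 25.0% of all probe sets tested in inflorescences did. The tapetum sum is weighted to its brightest gene, SWEET8 (mean of 2747 in Col-7 and 2725 in gir). Its members did not all stay level: AT1G75920 averaged 1615 in Col-7 and 1141 in gir, and EMS1 790 and 976, each with overlapping arrays. As percentages of the Col-7 mean, the gir arrays stood at 7.83 to 13.6% for EXPB5, 20.9 to 36.7% for EXPA8 and 12.5 to 18.3% for the late pollen sum. Neither gene is part of that sum. Set against it on the same array, EXPB5 stood at 8.96 ± 0.965% in Col-7 and, from dim values, at 6.05 ± 2.48% in gir (SD, n = 4), with overlapping arrays. EXPA8 stood at 42.3 ± 6.68% of the sum in Col-7 and 72.9 ± 8.75% in gir, without overlap. Thus EXPA8 fell less than the late pollen sum did. That sum is weighted to its brightest gene, AtVEX1 (mean of 2670 in Col-7 and 341 in gir), so this does not hold for each late pollen gene. The part of pollen content in either fall was not tested, and in whole inflorescences fewer cells of a type and less RNA per cell cannot be told apart.

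**Figure D4:**
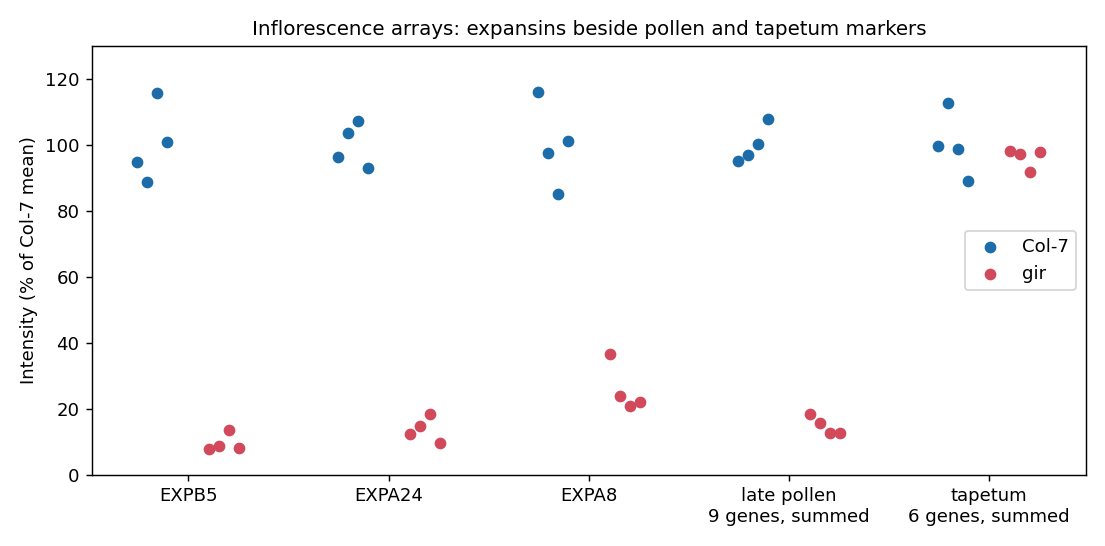
Intensity on each inflorescence array as a percentage of the Col-7 mean (blue for Col-7, red for gir, 4 arrays each) for EXPB5, EXPA24, EXPA8, and the sums of the late pollen and tapetum lists. The gir arrays lie at 36.7% or lower for the expansins shown and at 18.3% or lower for late pollen, whereas the tapetum sum stays at 91.7% or higher.

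EXPA15 was at 801, 690, 666 and 602 on Col-7 inflorescence arrays 1 to 4 and at 648, 577, 498 and 467 on the gir arrays of the same numbers. The ranges of the 2 genotypes overlapped, and the log2 change of -0.32 ± 0.12 did not pass the threshold. Within same-numbered arrays the difference was -0.29, -0.25, -0.40 and -0.35, lower in gir in 4 of 4 pairs. With the replicate number as a block it passed (-0.32 ± 0.07, limma adjusted p = 0.0079), and over all alternatives the adjusted p ranged from 0.0079 to 0.26. EXPB3 varied with the replicate number even more, at 1044, 938, 711 and 588 in Col-7 and at 1247, 932, 580 and 487 in gir. Its differences within same-numbered arrays were 0.25, -0.01, -0.28 and -0.26, with no common direction (-0.08 ± 0.28). The 25S ribosomal RNA control moved with the number too, from 345 and 359 on the arrays numbered 1 to 6585 and 8660 on those numbered 4, and its part in the spread of EXPB3 and EXPA15 was not tested.

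**Figure D5:**
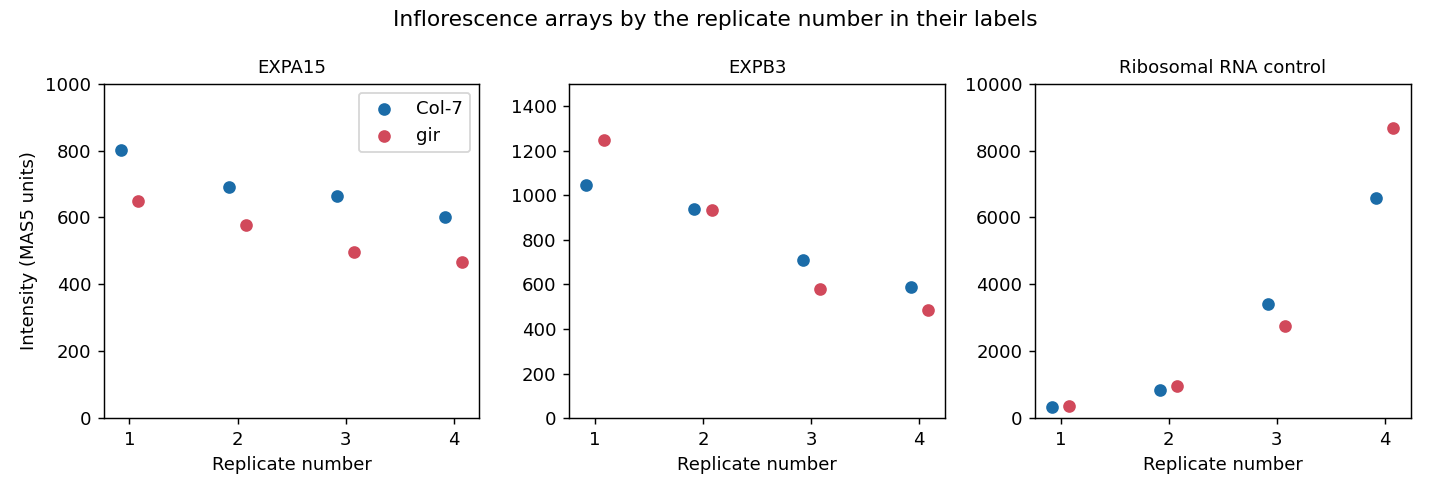
Intensity of EXPA15, EXPB3 and the 25S ribosomal RNA control on the inflorescence arrays by replicate number (blue for Col-7, red for gir). EXPA15 is lower in gir at each number, while for EXPB3 the genotypes change order between replicate 1 (1044 and 1247) and replicate 4 (588 and 487).

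EXPA9 was at 361, 290, 339 and 408 in Col-7 inflorescences and at 374, 369, 339 and 361 in gir inflorescences. Its groups overlapped, with a log2 change of 0.05 ± 0.10. EXPA7 stood at 5.01 to 13.7 in Col-7 inflorescences and at 2.98 to 46.2 in gir inflorescences, EXPA18 at 20.5 to 49.7 and 30.8 to 45.3, and EXPB2 at 24.7 to 53.3 and 18.9 to 60.4. These ranges all overlapped in the dim part of the arrays, where intensities have no reliable order.

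Of the other 10 family members, 6 were tested in inflorescences, 2 fell, 1 rose and 3 did not pass. Over all probe sets tested in inflorescences, 12.5% were lower and 12.5% higher. The median log2 change of the 6 was -0.025. EXPA24 averaged 494 ± 32.2 in Col-7 and 67.7 ± 18.5 in the mutant (SD, n = 4). All its gir arrays were below their 40th percentile and it entered the test only through Col-7, so it is given as at least 3.85-fold lower, without a p-value. Like EXPB5, it was dim in roots. EXLA1 fell by 0.46 ± 0.09 (limma adjusted p = 0.0039) and EXPA20 rose by 0.48 ± 0.10 (limma adjusted p = 0.0052). With replicates 1 and 2 alone neither EXLA1 nor EXPA20 passed (limma adjusted p = 0.063 and 0.10). EXPA4 was at 972 to 1126 in Col-7 and at 1165 to 1301 in gir (0.22 ± 0.08, limma adjusted p = 0.056), without overlap, and it passed with the replicate number as a block (limma adjusted p = 0.029). EXPA16 and EXLA2 were at -0.04 ± 0.27 and -0.01 ± 0.14.

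The genotype difference itself was compared between tissues for the 4 expansins bright enough in both. It differed for EXPA8, EXPA9 and EXPA15, beside 18.2% of the 11911 probe sets tested, 10.9% shifted upwards in inflorescences relative to roots and 7.33% downwards. EXPA8 rose in roots and fell in inflorescences, so the difference of its changes (inflorescences minus roots) was -2.51 ± 0.21 (SE). EXPA9 passed the threshold in roots and not in inflorescences, and the difference was -0.66 ± 0.13. For EXPA15 the difference was 0.78 ± 0.15 and for EXPB3 0.71 ± 0.35, of which the latter did not pass. These differences contain the root changes known beforehand and are given without p-values. Among the other family members, EXPA4 had a difference of 0.93 ± 0.10 (limma adjusted p = 1.6e-05), EXPA20 one of 0.51 ± 0.12 (0.0099) and EXLA1 one of -0.79 ± 0.18 (0.0066), while EXLA2 did not pass.

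The order of the 4 group means separated the genes. For EXPA15 it was Col-7 root, gir root, Col-7 inflorescence and gir inflorescence, and only the last 2 overlapped. EXPB3 had the same order, with overlap between the inflorescence groups. For EXPA9 it was gir root, Col-7 root and then the overlapping inflorescence groups. For EXPA8 the order was Col-7 inflorescence first, gir root and gir inflorescence overlapping, and Col-7 root last, below all arrays of the other groups. For EXPA7 it was gir root, Col-7 root and both inflorescence groups, for EXPA18 both root groups ahead of both inflorescence groups, and for EXPB2 Col-7 root ahead of 3 dim groups that have no order. For EXPB5 the Col-7 inflorescences stood alone above 3 dim groups.

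Genes of another wall-loosening family, the xyloglucan endotransglucosylases/hydrolases (XTH), which cut and rejoin xyloglucan, were looked up beside the expansins. Of 9 XTH genes with a probe set of their own, 6 were tested in roots, 1 rose, 1 fell and 4 did not pass, beside 5.49% and 6.36% of all probe sets tested, with a median log2 change of 0.016. Nothing about the family is read from 1 gene each way. XTH19 rose by 0.45 ± 0.09 in gir roots (limma adjusted p = 0.015) but not in the joint fit or without the filter (0.25 and 0.069). XTH32 was at -0.37 ± 0.09 in gir roots (limma adjusted p = 0.030, and 0.066 with the replicate number as a block, 0.051 to 0.11 without any 1 root array other than Col-7 replicate 3) and rose by 0.77 ± 0.11 in gir inflorescences (limma adjusted p = 0.00048). The difference of these XTH32 changes was 1.14 ± 0.15 (limma adjusted p = 9.4e-05). XTH16 was the other of 2 XTH genes tested in inflorescences, at 0.68 ± 0.20 (limma adjusted p = 0.033, but 0.058 without the filter and 0.060 to 0.085 without Col-7 replicate 1 or 4 or gir replicate 2, 3 or 4). The wall and growth regulators COB, FER and THE1 did not pass in either tissue, with log2 changes of -0.08 to 0.21.

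Named genes whose levels ran most alike with each expansin over the 14 arrays were picked by Pearson's r among 8534 probe sets outside the family. These correlations are mostly set by the difference between tissues, with which age and medium also change, and are a description. EXPA7 was closest to AT3G15240 (r = 0.996) and AT2G47540 (0.995), and EXPA18 to AT5G38020 (0.999) and AT2G25980 (0.998). EXPA15 was closest to GH9B8, a family 9 glycosyl hydrolase gene, and to SEC22 (0.981 each). EXPA9 was closest to AT4G25260 (0.995) and AT5G23840 (0.986), and EXPA8 to AT5G48900 (0.992) and AT4G32460 (0.989). Among the beta-expansins, EXPB3 was closest to AT1G55210 (0.985) and AT1G75280 (0.981), EXPB2 to AT5G17760 (0.965) and AT1G30515 (0.964), and EXPB5 to AT1G72460 (0.988) and AT2G18180 (0.987). No gene appeared for more than 1 of the 8.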

How the data were processed

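RNA of 14 samples was hybridised to 1-colour Affymetrix arrays. The authors deposited 1 linear intensity for every probe set and array, and MAS5 is the tool that the submitters' processing notes name. Its version and the genome build are not given in the sources used here. The mean of each array without its lowest and highest 2% of values was 500, which is the authors' scaling. From these deposited intensities, log2(intensity + 26) was computed, 26 being the 20th percentile of all values. Within a tissue, the test took in non-control probe sets at or above the 40th percentile of an array on no fewer arrays than there were in the smaller genotype group. Each tissue was fitted with limma 3.58.1 in R 4.3.3 (lmFit, eBayes, two-sided), with Benjamini-Hochberg adjustment over all probe sets tested. The difference between tissues and the Col-7 tissue contrast came from 1 fit of all 14 arrays, the latter over probe sets tested in at least 1 tissue. The fits were tested on data simulated with independent arrays and the same spread in every group. That test does not cover arrays that deviate together or groups of unequal spread.

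Genes were named through the platform annotation, which listed 14016 probe sets, 13436 of them naming 1 gene of the TAIR10.1 gene table. No gene sequence or coordinate is given, since the files name no build. The members, the gene lists (expansins, XTH, wall and growth regulators, root hair, late pollen, tapetum) and the alternatives were chosen with earlier results of these data known. No proton pump or SAUR gene of the acid growth list had a probe set of its own in the annotation used. The genes named with values were the 8 expansins, the other family members, up to 4 of smallest p past the threshold from each list, and per expansin the 2 of highest correlation. AGL65, COB, FER, THE1 and, from the tapetum list, SWEET8, AT1G75920 and EMS1 fall outside that rule and were named after their values were seen. Late pollen genes are given as a sum, apart from AGL65 and AtVEX1. For genes below the 40th percentile on every gir array, the fold is a bound, the Col-7 mean over the mean of that percentile. Same-numbered inflorescence arrays deviated together (correlations of 0.587, 0.191, 0.203 and 0.516). Some arrays of different number did so as well (0.402 for gir 4 with Col-7 3, 0.249 for gir 3 with Col-7 4, 0.188 for gir 1 with Col-7 2), so pairs and sets of 1 and 2 against 3 and 4 cannot be told apart. Root arrays did not (0.0768, 0.00725 and 0.0166). The main fits did not pair arrays, and the replicate number entered as a block in an alternative fit of each tissue.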

Additional observations from a re-analysis of the deposited data

Results flagged for a closer look

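The genotype effect differed between inflorescences and roots by the interaction term for 3 of the 4 expansins tested in both tissues. Over all probe sets tested, it differed for 18.2% of 11911. The differences were -2.51 for EXPA8, -0.66 for EXPA9 and 0.78 for EXPA15 (log2, inflorescences minus roots). They contain root changes known beforehand, so nothing further is read from the count. In 2 of 16 groups of 4 arrays, 1 array stood far from the other 3, where chance gives about 1 in 20 for normally distributed values. Both cases are dim values on the same array, so no excess over chance is read from them. EXPA7 was at 46.2 on gir inflorescence replicate 3 against 2.98 to 6.67 on the other gir inflorescence arrays. EXPB5 was at 77.1 on the same array against 44.4 to 49.0 on the others. Each of these arrays had its 40th percentile above these values.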

How the results depend on the processing

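Of 426 comparisons of an expansin's change with its value under an alternative (permutation tests apart), 412 kept direction and side of the threshold. All changes of the 8 between Col-7 tissues, and all tests of the difference between tissues, did so under the alternatives run. The joint fit ended 3 root calls (0.44 for EXPA7, 0.57 for EXPA8, -0.79 for EXPB3). EXPA15 in inflorescences passed with the replicate block, in the joint fit, with replicates 3 and 4 alone and without gir replicate 1. Signs turned for small changes that did not pass: EXPA18 in roots (-0.023 to 0.074 without single arrays, below 0 without gir replicate 1), EXPA9 in inflorescences (-0.030 to 0.12 without single arrays, below 0 without Col-7 replicate 2, and -0.084 with replicates 3 and 4 alone) and EXPB3 in inflorescences (-0.31 to 0.13 without single arrays, above 0 at 0.049, 0.049 and 0.13 without Col-7 replicate 1, gir replicate 3 and gir replicate 4, 0.12 with replicates 1 and 2 alone). The cause was not tested. Splitting inflorescence replicates into 1 and 2 and 3 and 4 was chosen after seeing the data. Over all probe sets, root calls numbered 1636, but 616 without the filter, 707 in the joint fit, and 814 to 1216 without single arrays (863, 814 and 1038 without gir replicates 1 and 2 and Col-7 replicate 2). With the replicate block they were 1281 in roots and, against 3487, 4865 in inflorescences. The block changed the inflorescence call of EXPA15 and no other call of the 8. With replicates 1 and 2 alone the inflorescence count was 1669. The difference between tissues gave 2168 calls, 3283 without the filter and 1441 with the stricter filter. Median centring turned 758 higher and 878 lower in roots into 1037 and 690, and 1744 and 1743 in inflorescences into 2473 and 1577, without changing a call of the 8. Exact permutation of 3 against 3 root arrays cannot give a p below 0.1, and of 4 against 4 inflorescence arrays below 0.0286. Probe sets near the dim end of the arrays limit what can be said of EXPA7, EXPA18 and EXPB2 in inflorescences and EXPB5 in roots.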

Other observations

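EXLA3, an expansin-like gene of roots, varied more between root arrays of 1 genotype than the 7 expansins tested there. It was at 724, 343 and 349 in Col-7 roots and at 600, 726 and 219 in gir roots, coefficients of variation of 46.3% and 51.3%. Those of EXPA7, EXPA8, EXPA9, EXPA15, EXPA18 and EXPB3 in roots were 1.76 to 7.54%, and those of EXPB2 20.7% in Col-7 and 12.6% in gir. EXPB5, dim in roots, is left out. In inflorescences EXLA3 was dim, at 11.3 to 33.8 on all 8 arrays.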
